A study of Mus musculus with 2 samples.

Results

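The glycolysis and lactate genes are 32 genes, chosen by name, out of 32285 genes counted in a single-cell experiment on mouse spermatogonial stem cell cultures. They cover 16 steps, from the glucose transporters through each glycolytic reaction to lactate dehydrogenase, the lactate transporters and the gate into the mitochondrion. Each name was found in both libraries, and 2 gene rows carried the name Aldoa and were summed (10774 and 24222 UMIs in one of them against 2 and 0 in the other, in control and FGF9).

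The cells were THY-1+ germ cells, sorted from the testes of C57 LacZ mouse pups about a week old and grown on STO fibroblast feeders with FGF2 (1 ng/ml), GDNF (20 ng/ml) and its co-receptor GFRA1 (150 ng/ml). For the experiment, the medium was changed to one with 20 ng/ml FGF9 or, in the control, 0 ng/ml FGF in BSA carrier, for 48 h. The labels name only the absence of FGF in the control, while part of the study's text calls it free of growth factors, so whether GDNF and GFRA1 stayed in either medium over the 48 h is open here. Cells derived from several mice were pooled into 1 library per treatment, so there was no replicate and no test between the treatments. The passage is given as 9-12 for both libraries in one label, while another label carries a later upper limit for FGF9. Intervals below are 95% intervals for counting error only, which do not hold the spread between cultures or between cells.

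Glycolysis splits glucose into pyruvate in the cytosol and yields ATP without oxygen. Pyruvate then either enters the mitochondrion through pyruvate dehydrogenase or is reduced to lactate by lactate dehydrogenase, which renews the NAD+ that glycolysis needs. The phosphofructokinase 1 reaction is the main point of control, and several steps exist as isozymes from separate genes with different tissue ranges. Undifferentiated spermatogonia are known to favour glycolysis, while later germ cells take up lactate made by Sertoli cells.

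A cell was kept with at least 2000 genes and at most 20% mitochondrial UMIs, and called germ below 40 UMIs of Vim plus S100a6 and feeder from 40 on. This left 4157 germ cells in control and 4537 in FGF9, with medians of 14824 and 13067 UMIs. There were 31 and 63 feeder cells. No cell had 30 to 39 of these UMIs, and 2 in each library had 40 to 49. The germ class carried the germ cell genes Dazl (1729 and 1823 UMIs per 1000000 UMIs, here CPM) and Ddx4 (437 and 426 CPM), and all 8 germ cell markers were detected. Leydig cell, macrophage, muscle, endothelial and red blood cell markers summed to between 0.0148 and 5.33 CPM per list in germ cells, and the 4 Sertoli markers to 7.74 and 10.4 CPM. The libraries shared 11 barcodes, 10 of them germ cells.

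Levels of feeder markers in the germ class differed between the libraries. The rise was largest for Vim, counted at 3.65 CPM in control germ cells and 18.5 CPM in FGF9 germ cells. Col1a1 alone went the other way, from 22.3 to 12.3 CPM. The 8 feeder markers together were at 136 and 193 CPM, most of it from Lgals1 (95.3 and 137 CPM). In feeder cells the 8 together were at 13802 and 18827 CPM. The level of a feeder marker in germ cells, as a share of its feeder level, ran over the 8 markers from 0.0284% to 4.43% in control and from 0.0638% to 3.53% in FGF9. Germ cells without any UMI of Vim or S100a6 were therefore also taken alone (3594 and 3138 cells).

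The promoters of 3 members are shown because these genes stood among those furthest above control, at the committed step (Pfkp), in the middle of the pathway (Tpi1) and at lactate (Ldha). Each is the RefSeq window on GRCm38.p6 from 250 bases before to 50 bases after an annotated gene start, 5′ to 3′ on the gene's strand, at chr13:6648722-6649021 (minus strand, Pfkp), chr6:124814109-124814408 (minus strand, Tpi1) and chr7:46845554-46845853 (plus strand, Ldha, which has a second window). Capitals mark ACGTG or GCGTG, the core bound by hypoxia-inducible factors, or their reverse complements, and CACGTG, the E-box, which holds ACGTG.
Pfkp: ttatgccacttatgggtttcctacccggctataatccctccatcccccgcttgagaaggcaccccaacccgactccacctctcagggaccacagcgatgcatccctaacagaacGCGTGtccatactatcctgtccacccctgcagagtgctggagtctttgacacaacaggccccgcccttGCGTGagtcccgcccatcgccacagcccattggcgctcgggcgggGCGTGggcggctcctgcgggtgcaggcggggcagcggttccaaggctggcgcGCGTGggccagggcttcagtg
Tpi1: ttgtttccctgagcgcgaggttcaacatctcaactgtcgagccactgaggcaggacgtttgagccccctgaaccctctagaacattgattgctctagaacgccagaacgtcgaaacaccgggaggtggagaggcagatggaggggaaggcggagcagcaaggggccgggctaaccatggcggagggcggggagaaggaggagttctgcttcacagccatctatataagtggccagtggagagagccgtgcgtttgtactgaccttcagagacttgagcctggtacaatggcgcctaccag
Ldha: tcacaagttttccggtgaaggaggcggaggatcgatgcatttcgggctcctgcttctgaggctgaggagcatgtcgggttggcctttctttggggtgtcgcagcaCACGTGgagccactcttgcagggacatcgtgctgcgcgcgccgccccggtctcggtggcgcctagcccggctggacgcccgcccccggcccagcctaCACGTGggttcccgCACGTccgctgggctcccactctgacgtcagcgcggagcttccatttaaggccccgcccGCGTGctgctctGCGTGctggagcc
The Pfkp window held 4 copies of GCGTG and none of ACGTG. The Ldha window held 5 matches of ACGTG, which include both strands of 2 CACGTG, and 2 of GCGTG. The Tpi1 window held none of them, so genes far above control were found with and without these letters. Of the 32851 windows of all genes, 43.8% held ACGTG or GCGTG on either strand. Among the windows of members that passed the limit defined below it was 11 of 14 windows (10 genes), and among those measured that did not, 15 of 19 windows (11 genes). The ETS motif CCGGAAG stood in 8.86% of all windows and in 0 of the 14. Slc2a3 had no window in the table, and 31 members had at least 1. These matches describe the letters only.

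In the germ cells, glycolysis genes stood higher with FGF9 than in control, and none stood lower past the limit. A gene was measured when its mean was at least 10 CPM over the libraries, and passed the limit with a log2 ratio of FGF9 over control of at least 0.5 in size and an interval that leaves out 0. Of the 22 members measured, 11 passed upwards, where 5.12% of all 8610 measured genes did, and 0 downwards, where 5.33% did. The other 11 lay between. Pfkp and Hk2 were under 10 CPM in control and were measured only through their FGF9 level, so they had to stand higher. Among the 20 members with at least 10 CPM in control, 9 passed upwards and 0 downwards, where 3.96% and 6.15% of 8589 genes did. The median log2 ratio of these 20 was 0.32, beside -0.04 for the 8589 genes. The median log2 ratio of the 22 was 0.47, beside -0.03 for all measured genes, with 17 above 0 and 5 below. Together the 32 members made up 2347 CPM in control and 3458 CPM in FGF9, a log2 ratio of 0.56 (0.55 to 0.57). Counts come from the 3′ ends of transcripts and are not divided by length, so levels of different genes are not ranked. Shares within an isozyme family are shares of UMIs and are compared between libraries and cell classes.

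**Figure D1:**
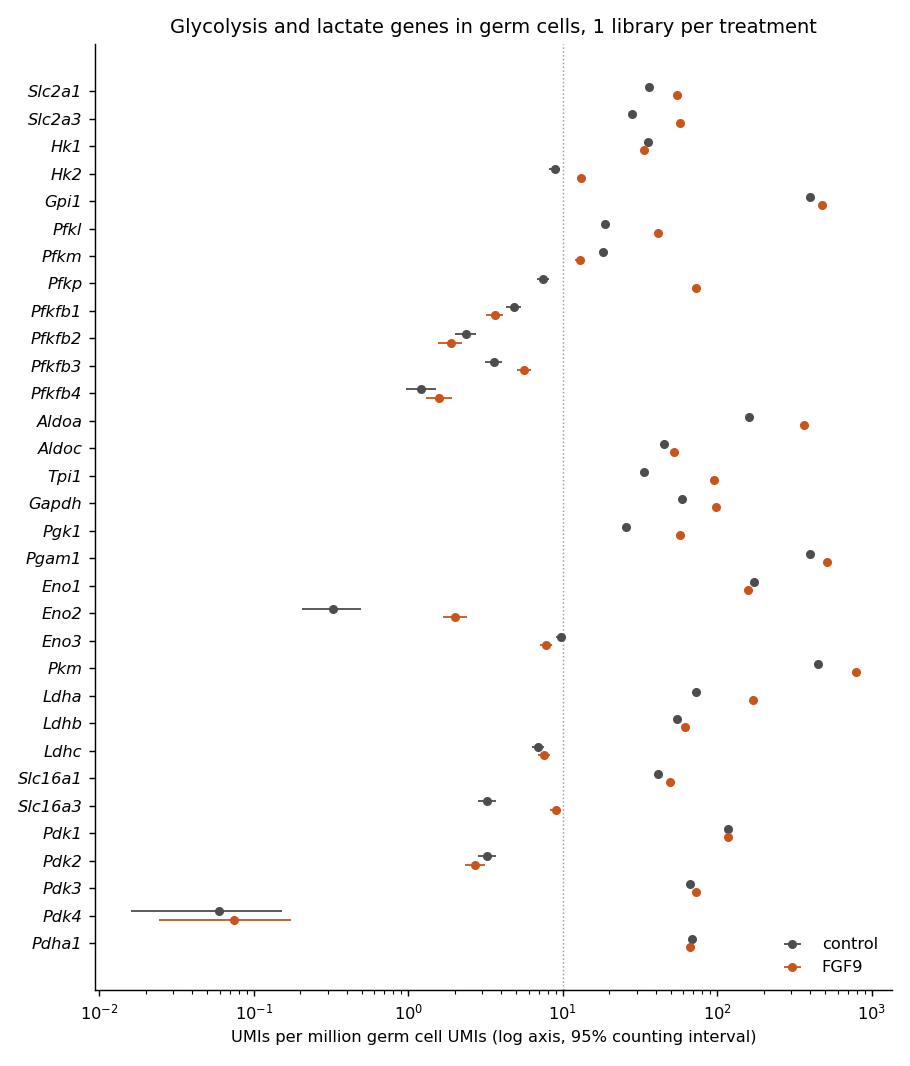
Level of each of the 32 members in germ cells, in CPM on a log axis, in pathway order from top to bottom; grey points are the control library, orange points the FGF9 library, bars 95% counting intervals, and the dotted line the 10 CPM limit. Pfkp moves from 7.48 to 72.2 CPM, while Hk1, Pdk1 and Pdha1 lie nearly on top of each other.

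Glucose enters through the transporters GLUT1 (Slc2a1) and GLUT3 (Slc2a3). Slc2a1 went from 36.3 to 55.1 CPM between control and FGF9 germ cells (log2 ratio 0.60, 0.53 to 0.68). Slc2a3 went from 28.1 to 57.6 CPM (1.04, 0.96 to 1.12), so both passed the limit. In germ cells without a UMI of 5 cycle genes (390 and 569 cells), 9 members passed upwards, where 4.12% of genes did, Slc2a1 no longer passed (0.38) and Slc2a3 was at 1.03. Hexokinases then trap glucose as glucose-6-phosphate. Hk1, the widely expressed form, was at 35.7 and 33.5 CPM (-0.09, -0.17 to -0.01), while Hk2, the form that insulin and growth factors raise in other tissues, was at 8.86 and 13.2 CPM (0.57, 0.42 to 0.72). Hk2 passed by a small margin and no longer did in cells without a cycle gene UMI (0.28). Summed, hexokinase transcripts differed little (44.6 and 46.7 CPM, 0.07, -0.01 to 0.14), with most of the UMIs from Hk1. Gpi1, the isomerase that follows, was at 395 and 473 CPM (0.26) and did not pass.

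Phosphofructokinase 1, which commits the sugar to glycolysis, was among the steps that differed most, and its isozymes did not move together. Pfkp, the platelet form, counted 506 UMIs in control and 4840 in FGF9, or 7.48 and 72.2 CPM (3.27, 3.14 to 3.41). This log2 ratio was number 5 from the top among all 8610 measured genes. Pfkp entered this ranking only through its FGF9 level and so had to stand higher, which makes the rank a description only. Pfkl, the liver form, went from 18.8 to 41.3 CPM (1.13, 1.04 to 1.23). Pfkm, the muscle form, went from 18.1 to 12.9 CPM (-0.49, -0.61 to -0.36), which fell just short of the limit on the lower side. The step as a whole went from 44.4 to 126 CPM (1.51, 1.45 to 1.57).

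The makeup of phosphofructokinase 1 differed more between the libraries than that of the other families with more than 1 member. In control germ cells, Pfkl held 42.5% of the family's 3003 UMIs (40.7 to 44.3), Pfkm 40.7% (38.9 to 42.5) and Pfkp 16.8% (15.5 to 18.2). In FGF9 germ cells Pfkp held 57.1% of 8477 UMIs (56.0 to 58.2), Pfkl 32.7% and Pfkm 10.2%. The share of Pfkp was thus 40.2 points higher with FGF9 (38.5 to 41.9). The difference was 37.6 points in germ cells without a Vim or S100a6 UMI, and 35.9 points in germ cells without a UMI of 5 cycle genes. The shares in feeder cells were different: Pfkl held 70.6% of 170 UMIs in control and 79.4% of 640 in FGF9, with Pfkp at 25.3% (19.0 to 32.5) and 14.4% (11.8 to 17.3).

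**Figure D2:**
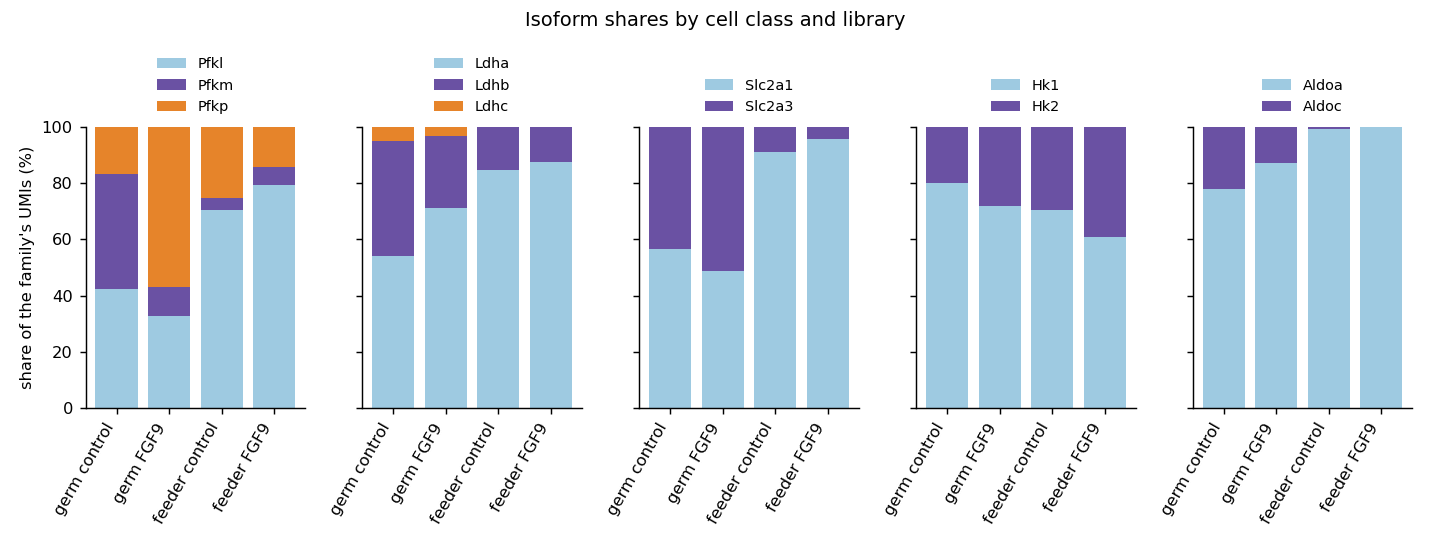
Share of each isozyme in the UMIs of its family (percent, stacked to 100) in germ and feeder cells of each library, for phosphofructokinase 1, lactate dehydrogenase, glucose transporters, hexokinase and aldolase. Pfkp takes 16.8% of its family in control and 57.1% in FGF9 germ cells, and Pfkl 70.6% and 79.4% in feeder cells; feeder bars rest on few UMIs (34 to 3656 per family).

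The bifunctional enzymes Pfkfb1 to Pfkfb4 make and break fructose-2,6-bisphosphate, the activator of phosphofructokinase 1. All 4 were under 10 CPM and so not counted. Pfkfb3, the form with the strongest kinase activity, was at 3.58 and 5.61 CPM (242 and 376 UMIs, 0.65, 0.41 to 0.89). Pfkfb1 was at 4.82 and 3.62 CPM (-0.41, -0.66 to -0.17). Their sum was nearly level (0.09, -0.05 to 0.23), with the share of Pfkfb3 at 29.9% of 809 UMIs in control and 44.2% of 851 in FGF9.

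The later reactions, from aldolase to pyruvate kinase, split into steps that stood higher and steps that did not. Aldoa, the general aldolase, went from 159 to 361 CPM (1.18, 1.15 to 1.21) and Aldoc, the brain form, from 45.2 to 52.5 CPM (0.22). Tpi1, which interconverts the triose phosphates, went from 33.3 to 95.6 CPM (1.52, 1.45 to 1.59) as the only gene of its step. Gapdh, which makes NADH, was at 59.2 and 97.6 CPM (0.72, 0.66 to 0.78), and its many processed copies in the genome could draw reads away. Pgk1, which yields the first ATP of the pathway, was at 25.6 and 57.5 CPM (1.17, 1.09 to 1.25).

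Past that point, Pgam1, the mutase, did not pass (399 and 513 CPM, 0.36, 0.34 to 0.38). Enolase was the glycolytic step in which FGF9 stood lower: Eno1 was at 171 and 159 CPM (-0.11, -0.15 to -0.07). Eno2, the neuronal form, had 22 UMIs in control and 135 in FGF9 (0.325 and 2.01 CPM, 2.63, 1.97 to 3.35), and Eno3, the muscle form, was at 9.71 and 7.75 CPM (-0.32). Eno1 and its retrogene Eno1b share sequence, so some reads could be split between them. Pkm, pyruvate kinase, was at 449 and 784 CPM (0.80, 0.78 to 0.82), and gene counts do not tell its M1 and M2 forms apart. The values thus did not follow the order of the reactions, with enolase flat between steps that stood higher.

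**Figure D3:**
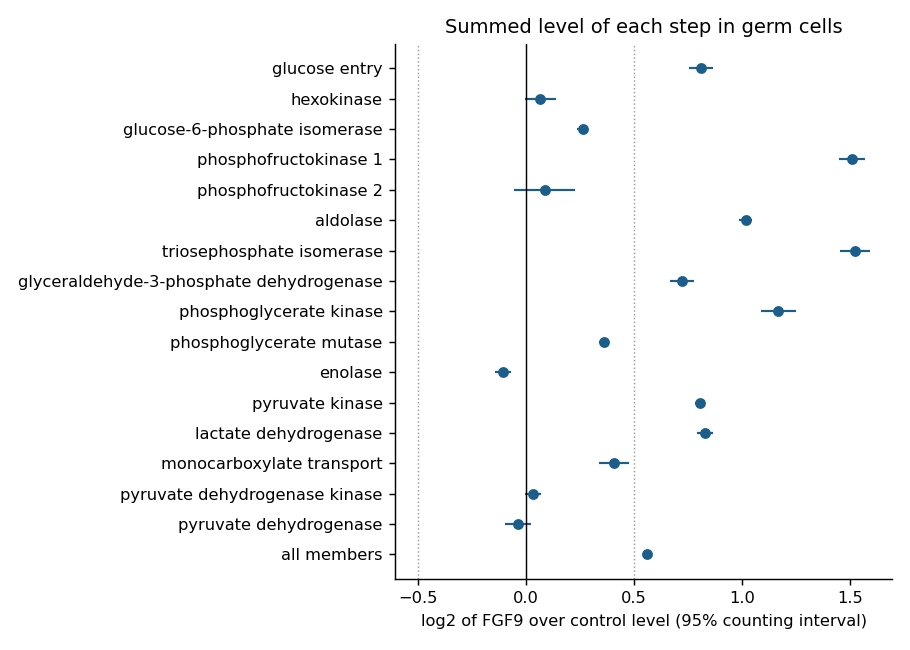
Log2 of the FGF9 over the control level of each of the 16 steps and of all members in germ cells, summed over the genes of a step, with 95% counting intervals; dotted lines mark 0.5 in size. Phosphofructokinase 1 (1.51), triosephosphate isomerase (1.52), phosphoglycerate kinase (1.17) and aldolase (1.02) lie furthest to the right, and hexokinase (0.07), enolase (-0.11) and the pyruvate dehydrogenase steps lie near 0.

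Lactate dehydrogenase is made of A and B subunits, of which A favours the making of lactate and B its use. Ldha went from 72.4 to 170 CPM (1.23, 1.18 to 1.28), and Ldhb from 54.9 to 61.3 CPM (0.16, 0.09 to 0.22). Ldhc, the testis form known from meiotic and later germ cells, was low in both libraries (6.88 and 7.57 CPM, 0.14, -0.05 to 0.32). The share of Ldha in the family was 53.9% of 9082 UMIs in control (52.9 to 55.0) and 71.1% of 15999 in FGF9 (70.4 to 71.8), while that of Ldhb was 40.9% and 25.7%.

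Lactate leaves the cell through monocarboxylate transporters. Slc16a1 (MCT1) was at 41.0 and 49.7 CPM (0.28), short of the limit. Slc16a3 (MCT4), the form of strongly glycolytic cells, had 220 and 601 UMIs (3.25 and 8.96 CPM, 1.46, 1.24 to 1.69) but a mean under 10 CPM. Its share of the transporter UMIs was 7.35% of 2994 in control and 15.3% of 3932 in FGF9. Embigin (Emb), a membrane partner of these transporters, went from 35.5 to 74.7 CPM (1.07, 1.00 to 1.14), whereas basigin (Bsg), the other partner, was at 442 and 448 CPM (0.02).

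The gate into the mitochondrion was level between the libraries. Pyruvate dehydrogenase kinases switch pyruvate dehydrogenase off. Pdk1 was at 118 and 117 CPM (-0.01, -0.06 to 0.03) and Pdk3 at 67.0 and 73.0 CPM (0.12, 0.07 to 0.18), while Pdk2 was at 3.25 and 2.70 CPM and Pdk4 at 4 and 5 UMIs. Pdha1, the enzyme's catalytic subunit, was at 68.0 and 66.3 CPM (-0.04, -0.10 to 0.02). Without these 5 genes, 11 of the 19 measured members passed upwards, where 5.12% of all measured genes did. The median of the 19 was 0.60. Pfkp and Hk2, measured only through their FGF9 level, are among them and raise both values.

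In pathways next to glycolysis, few genes passed the limit. Over all measured genes, 5.12% passed upwards and 5.33% downwards. In the pentose phosphate pathway, 0 of 7 measured genes were higher and 1 lower, Pgd, which makes NADPH (88.3 and 60.3 CPM, -0.55). In the tricarboxylic acid cycle, 0 of 16 were higher and 1 lower, Suclg2 (50.2 and 33.9 CPM, -0.57), and the median was 0.04. Pyruvate entry and the dehydrogenase complex had 0 of 10 in either direction, with the carrier Mpc1 at 0.40. The serine and hexosamine branches had 0 of 9 higher and 1 lower, the mitochondrial enzyme Shmt2 (-0.62), and the other glycolytic isozymes and sugar steps had 0 of 5 in either direction.

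The NADH shuttles had 1 of 5 higher, the aspartate-glutamate carrier Slc25a13 (7.87 and 13.9 CPM, 0.81), and 0 lower. Slc25a13 was under 10 CPM in control and was measured only through its FGF9 level, so it had to stand higher. Gluconeogenesis had 1 of 2 higher, pyruvate carboxylase Pcx (16.7 and 24.0 CPM, 0.53), and the list of lactate handling 1 of 3, Emb. The others there were Bsg and Hif1an (-0.07), a hydroxylase that inhibits hypoxia-inducible factor and handles no lactate. Regulators named for glycolytic genes had 0 of 7 in either direction (median -0.12). Txnip, which restrains glucose uptake, was at 128 and 106 CPM (-0.27). Hypoxia factor genes outside glycolysis were the list with most genes past the limit after the members, 7 of 19 higher and 2 lower with a median of 0.19. Over all measured genes the shares were 5.12% and 5.33%. The 7 include adrenomedullin (Adm, 2.78 and 36.6 CPM, 3.72), Ankrd37 (43.0 and 162 CPM, 1.92) and the prolyl hydroxylase Egln3 (12.2 and 27.1 CPM, 1.16). They also include P4ha2 (8.02 and 16.1 CPM, 1.00). Adm and P4ha2 were under 10 CPM in control and were measured only through their FGF9 level, so they had to stand higher. The 2 lower were Bnip3 (101 and 67.5 CPM, -0.58) and Egln1 (165 and 114 CPM, -0.53). The other 10 lay between, Hif1a (-0.01) among them.

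Feeder fibroblasts carried more glycolytic RNA than germ cells. Members made up 8586 CPM of the feeder cells in control and 11688 CPM in FGF9. Over the 23 members measured in both libraries, 11 stood higher in feeder than in germ cells in each library by the same rule, where 22.1% of 8621 genes did, and 3 lower, where 35.9% did. Among the 11, Eno2 (0.325 and 2.01 CPM in germ cells) was measured only through its feeder level, so it had to stand higher there. Pgk1 stood at 1651 and 2307 CPM in feeder cells (6.01 and 5.33 above germ cells on the log2 scale). The 3 that were lower in feeder cells were Slc2a3 (5.78 and 3.22 CPM), Aldoc (10.1 and 4.29 CPM) and Pdk1 (41.9 and 63.3 CPM). Slc2a3 in both libraries and Aldoc in FGF9 were measured only through their germ level, so they had to stand lower there.

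Pfkp changed its place between the classes. In control it was higher in feeder cells (62.1 against 7.48 CPM, 3.05), and with FGF9 it was lower there (49.4 against 72.2 CPM, -0.55). In control, Pfkp was measured in this comparison only through its feeder level, so it had to stand higher in feeder cells. Between the libraries, Pfkp in feeder cells was at 43 and 92 UMIs (-0.33, -0.87 to 0.23).

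Feeder cells also held members that stood higher with FGF9, on far fewer counts. Of 21 measured members, 6 passed upwards, where 5.78% of 8480 genes did, and 0 downwards, where 13.0% did, and the median was 0.38 beside -0.13 for all genes. The 6 were Ldha (708 and 1182 CPM, 0.74), Pgam1 (1070 and 1726 CPM, 0.69), Gapdh (0.68), Pfkl (0.65), Eno1 (0.56) and Gpi1 (0.52). Aldoa (0.30), Tpi1 (0.21) and Pkm (0.26) did not pass in feeder cells. Levels of germ cell markers in the feeder class also differed between the libraries: over the 8 germ cell markers, the feeder level was 21.6% of the germ level at the median in control and 5.89% in FGF9. The part of germ cell RNA in these ratios was not tested. In the barcodes left out by the filter on genes and mitochondrial UMIs, 14 of 21 measured members passed upwards, where 18.5% of 7416 genes did, and 0 downwards, where 1.5% did. Pfkp, Pfkl and Hk2 were measured there only through their FGF9 level, so they had to stand higher.

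The feeder RNA that could stand in the germ cell values was computed from the markers, and depends on which one is taken. With the share of Vim (0.145% and 0.392%), feeder RNA would give 0.09 of the 7.48 CPM of Pfkp in control and 0.194 of 72.2 CPM in FGF9. With the share of Lgals1 (3.44% and 3.53%) it would give 2.14 and 1.74 CPM, and with that of Col1a1, the highest in control (4.43%), 2.75 and 1.26 CPM. With each taken off, the log2 ratio of Pfkp was 3.28 (Vim), 3.72 (Lgals1) and 3.91 (Col1a1). The shares of Lgals1 and Col1a1 are too high by the level of Pgk1, given below, so the last 2 ratios take off too much.

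For several members the choice weighs more. Pgk1 would get 2.39 of 25.6 CPM and 9.05 of 57.5 CPM from feeder cells with Vim. With Lgals1 it would get 56.9 and 81.5 CPM and with Col1a1 73.2 and 58.8 CPM. This is more than was counted, so the shares of Lgals1 and Col1a1 are too high for Pgk1. The computation applies the same share to all members, so values with these markers overstate the feeder part of the other members too. With Col1a2 (0.0533% and 0.107%) it would get 0.88 and 2.46 CPM. The log2 ratio of Pgk1 was 1.06 with the Vim part taken off and 1.16 with the Col1a2 part. Its germ cell level thus depends on the marker taken. Eno2 would get 1.49 CPM in control with Lgals1, above its 0.325 CPM. Tpi1 in control (33.3 CPM) would get 0.789 CPM with Vim, 18.8 with Lgals1 and 24.1 with Col1a1, and its log2 ratio with these taken off was 1.52, 2.33 and 3.12. For Aldoa the 3 ratios were 1.17, 1.48 and 1.81. In germ cells without a Vim or S100a6 UMI the log2 ratio of Pgk1 was 1.09, that of Pfkp 3.06, that of Tpi1 1.36, that of Ldha 1.08 and that of Aldoa 1.03. In these cells 10 members passed upwards, where 4.69% of genes did, all of them among the 11, and Hk2 did not (0.42).

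Each germ cell was then scored by the UMIs of the 22 measured members per 100 UMIs, after thinning to 5000 UMIs (4141 and 4515 cells, leaving out 16 and 22 shallower ones). The mean score was 0.230 in control (SD over cells 0.090) and 0.341 in FGF9 (SD 0.147), a log2 ratio of 0.57 between the libraries (0.55 to 0.59). The lower quartile, median and upper quartile were 0.160, 0.220 and 0.280 in control and 0.240, 0.320 and 0.420 in FGF9. The whole distribution thus lay higher and was wider, and 27.9% of FGF9 cells (26.6 to 29.2) exceeded the 95th percentile of control. Without thinning the means were 0.229 and 0.341.

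**Figure D4:**
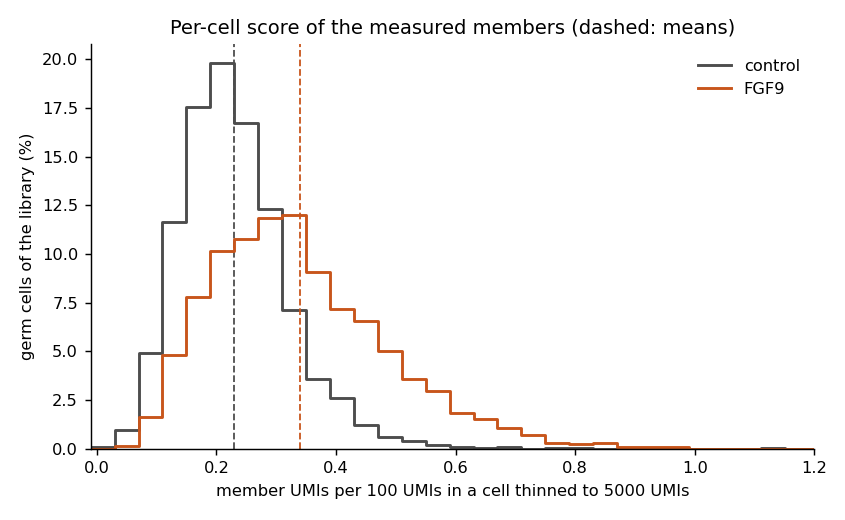
Distribution of the per-cell score (x axis, member UMIs per 100 UMIs of a cell thinned to 5000) as the percent of germ cells of each library (y axis); dashed lines are the means. The FGF9 curve lies to the right of control (means 0.341 and 0.230) and has the longer right tail.

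The score was split by Etv5, an ETS factor of stem cell self-renewal, by the neurofilament gene Nefm and by the proliferation marker Mki67. All 3 stood higher with FGF9 in germ cells, Etv5 from 1.82 to 29.5 CPM (4.02), Nefm from 19.7 to 202 CPM (3.36) and Mki67 from 41.4 to 156 CPM (1.92). In FGF9, cells with a Nefm UMI scored 0.358 (1890 cells) and cells without 0.328 (2625 cells), a log2 ratio of 0.13 (0.11 to 0.15). Those with Etv5 scored 0.355 (619 cells) and those without 0.338 (0.07, 0.04 to 0.10). Those with Mki67 scored 0.346 (1168 cells) and those without 0.339 (0.03, 0.01 to 0.05). Every one of these gaps was small beside the SD of 0.147 between cells.

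In control cells the gap was 0.10 for Nefm (279 cells with a UMI, 0.05 to 0.15), 0.22 for Etv5 (40 cells, 0.09 to 0.34) and 0.02 for Mki67 (394 cells, -0.02 to 0.07). The Etv5 gap was thus wider in control than in FGF9, on few cells, and at 8000 UMIs per cell it was 0.092. The difference between the libraries was present in cells with and without a counted UMI of each gene. It was 0.55 in cells with Nefm and 0.52 in cells without, 0.41 and 0.56 for Etv5, and 0.57 and 0.56 for Mki67. Unthinned, more FGF9 cells had a UMI: 2817 for Nefm, 1466 for Etv5 and 1715 for Mki67. The thinned cells without a UMI thus include some that held this RNA. In unthinned cells without a UMI the difference was 0.50 for Nefm, 0.55 for Etv5 and 0.55 for Mki67. The Pfkp share within phosphofructokinase 1 in FGF9 was 60.6% in cells with Nefm (59.1 to 62.1) and 53.6% in cells without (52.1 to 55.1), 59.8% and 56.7% for Etv5, and 60.5% and 55.8% for Mki67.

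Another gene, chosen after the values were seen, went with the score far more. Over FGF9 germ cells at 8000 UMIs (n = 4179), the gene outside the list with the highest Pearson's r with the score was the hypoxia-inducible Ankrd37 (0.48). It was followed by the annexin Anxa2 (0.42), the early response gene Ier3 (0.41), the cytokine gene Mif (0.40) and Adm (0.37). The values for Nefm, Etv5 and Mki67 were 0.14, 0.05 and 0.03, and the 99th percentile of 8588 genes was 0.11. In control (n = 4042) Mif led with 0.24, followed by Ankrd37 (0.18). The mitochondrially encoded gene mt-Nd1 was at the lower end in FGF9 (-0.23) and close to it in control (-0.20). Cells of 1 library share its culture and its free RNA, and all levels are parts of the same total, so these values are a description. In FGF9 cells without a Vim or S100a6 UMI (2840 cells), Ankrd37 was at 0.45, Mif at 0.39 and Adm at 0.32. Nefm was at 0.07 there, under the 99th percentile of 0.10, Etv5 at 0.05 and Mki67 at -0.01.

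**Figure D5:**
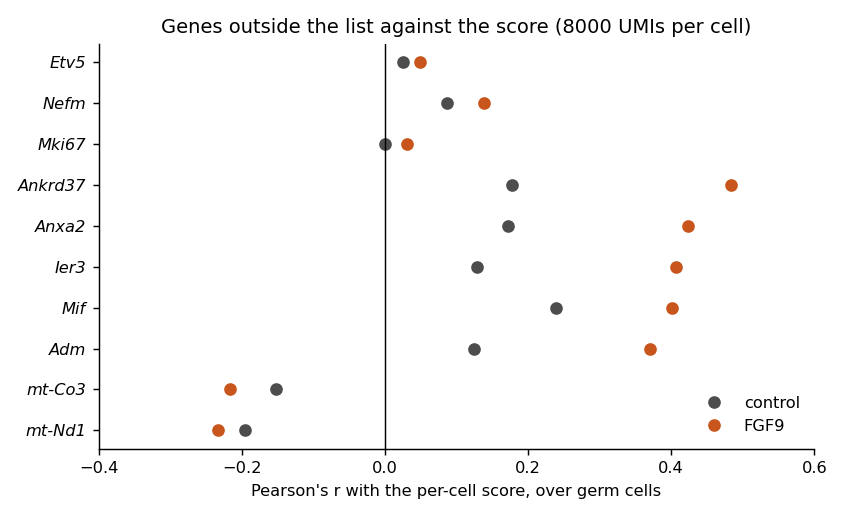
Pearson's r between the per-cell score and the level of single genes outside the list over germ cells thinned to 8000 UMIs, for control (grey, 4042 cells) and FGF9 (orange, 4179 cells). Etv5, Nefm and Mki67 lie at 0.14 or less, Ankrd37 at 0.48 in FGF9 and 0.18 in control, and mt-Nd1 and mt-Co3 below 0.

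Split by Ankrd37, FGF9 cells with a UMI scored 0.400 (2000 cells) and those without 0.293 (2515 cells), a log2 ratio of 0.45 (0.43 to 0.47). Ankrd37 was picked for its r with the score in FGF9 cells, so a gap in this direction follows from the choice. In control the scores were 0.253 (746 cells) and 0.225 (3395 cells), a log2 ratio of 0.17. Pfkp stood at 112 CPM in FGF9 cells with Ankrd37 and 43.3 CPM in those without (1.37), Tpi1 at 136 and 65.1 CPM (1.06), Ldha at 221 and 127 CPM (0.80) and Aldoa at 468 and 274 CPM (0.77). Pdk1, Pdk3, Slc16a1 and Hk1 were level or lower in cells with Ankrd37, at -0.02, -0.01, -0.02 and -0.12. Slc2a3 (0.76), Pfkl (0.72) and Pgk1 (0.70) were higher in cells with Ankrd37.

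The difference between the libraries did not end at cells with an Ankrd37 UMI. In cells without an Ankrd37 UMI the score differed by 0.39 (0.37 to 0.41) between FGF9 and control, and in cells with one by 0.66 (0.63 to 0.70). The first value fell with depth, to 0.34 at 8000 UMIs per cell and 0.27 unthinned. In FGF9, 2000 cells had an Ankrd37 UMI at 5000 UMIs and 3098 unthinned. The cells without a UMI at 5000 UMIs thus include some that held this RNA. Without Ankrd37, Pfkp went from 6.36 to 43.3 CPM (2.77, 2.46 to 3.08), Tpi1 at 30.1 and 65.1 CPM (1.11), and Pgk1 at 25.5 and 45.7 CPM (0.85). Eno1 in these cells was at 172 and 145 CPM (-0.24). The Pfkp share in FGF9 was 61.5% of phosphofructokinase 1 UMIs in cells with Ankrd37 and 49.95% in cells without, and 19.9% and 15.9% in control.

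Members varied together more in FGF9 than in control cells. Over the 231 pairs of measured members at 8000 UMIs per cell, the median r was 0.03 in FGF9 (highest 0.39, Aldoa with Ldha) and 0.01 in control (highest 0.17, Aldoa with Pkm). In FGF9, Aldoa also went with Pkm (0.37) and Tpi1 (0.35). The levels of these members were also higher in FGF9, and the part of the level in the correlations was not tested.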

How the data were processed

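Whole-transcriptome counts and a KIT antibody tag were measured by droplet sequencing (10x Genomics 3′ chemistry) in 2 libraries of mouse germ cell cultures, 1 per treatment. The authors deposited UMI counts per gene and barcode (unit: counts, not normalized), made with Cell Ranger (version 3.1.0 in the matrix header) on mm10. Seurat 3.1 is named in their processing notes for later steps. The KIT tag was not used here.

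UMIs were summed over germ or feeder cells of each library and divided by the total (CPM). Gene rows with the same symbol were summed. Log2 ratios carry exact conditional binomial 95% intervals, CPM Poisson and shares Clopper-Pearson intervals, all for counting error only. Doublets were not removed and no caller was run. An alternative leaves out barcodes above 2.5 times the median UMIs. Scores used cells thinned to 5000 UMIs without replacement (seed 1). TMM and median-of-ratios factors came from edgeR 4.0.16 and DESeq2 1.42.0 in R 4.3.3, with Python 3.11.15, numpy 2.4.6 and scipy 1.17.1 for the rest. On simulated counts for the germ cell comparison (8593 genes, 200 changed), 95.2% of intervals held the true ratio and 100% of genes changed by 0.7 or 1 on the log2 scale were called. The simulation held counting error only and changes above the limit, so it checks the computation and cannot bear on spread between cultures or cells.

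The members, the 10 related lists (121 genes) and the cell type markers were chosen with earlier results of these data known. Named were all 32 members, Etv5, Nefm and Mki67, and up to 3 measured genes with the highest log2 ratio in size from each related list. Bnip3, Egln1, Hif1a and P4ha2 were named in addition, from the hypoxia factor list. Ankrd37 as a split and the genes ranked by their correlation with the score were chosen after the values were seen. Gene positions and promoter windows are on GRCm38 (mm10), and all 33 member identifiers were found in GENCODE M21. No sequence was read from the cells.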

Additional observations from a re-analysis of the deposited data

Results flagged for a closer look

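Eno1 went opposite ways in the cell classes: its log2 ratio of FGF9 over control was -0.11 (-0.15 to -0.07) in germ cells and 0.56 (0.32 to 0.80) in feeder cells, with each interval on its own side of 0. The difference between the classes was not tested, and germ cell marker levels in the feeder class fell from a median of 21.6% to 5.89% of the germ level between the libraries.

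Barcodes outside the filter on genes and mitochondrial UMIs (1124 in control and 1359 in FGF9, with 3099985 and 3738003 UMIs) entered no main comparison of germ or feeder cells and were compared apart. Genes in general stood higher with FGF9 in these barcodes: 18.5% of 7416 measured genes passed upwards and 1.5% downwards, with a median of 0.24. Of 21 members measured there, 14 were higher with FGF9 and 0 lower, with a median of 0.61, and these 14 hold all 11 that passed in germ cells. Pfkp (7.10 CPM in control), Pfkl (6.45) and Hk2 (7.10) were measured there only through their FGF9 level, so they had to stand higher. Pfkm (7.42 and 3.75 CPM) was not measured there. The overlap with the 11 is thus in part built in. Pfkp was at 3.25, Pgk1 at 2.14, Pfkl at 1.98 and Tpi1 at 1.76 on the log2 scale. Aldoa was at 1.27, Ldha at 1.23, Hk2 at 1.22 and Pkm at 1.05. The rest were Slc2a3 at 0.79, Ldhb at 0.63, Slc2a1 at 0.61, Gpi1 at 0.60, Pgam1 at 0.56 and Gapdh at 0.51. These barcodes were not divided into germ and feeder cells, and the part of feeder cells in these values was not tested.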

How the results depend on the processing

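No paired analysis was possible because each treatment has 1 library and both carry the same replicate number, and for the same reason no library could be left out. Over 14 settings of filter, class, scaling and weighting, the median log2 ratio of the measured members ran from 0.38 to 0.50, the count of members higher from 9 to 11, and none was lower. With other limits for a measured gene the median was smaller. It was 0.32 with at least 10 CPM in control and 0.31 with a mean of at least 50 CPM. With at least 1 UMI in each library it was 0.35. Of 308 member values and 238 step values, 3 fell short of the limit and none reversed: Hk2 (0.28) and Slc2a1 (0.38) in germ cells without a UMI of 5 cycle genes, and Hk2 (0.42) in germ cells without a Vim or S100a6 UMI. The last setting, the one without shared barcodes and the minimum of 10 CPM in control were chosen after seeing the data. The difference in Pfkp share moved to 35.9 points without cycle gene UMIs and to 37.6 points without Vim or S100a6 UMIs. With a minimum of 50 CPM, 5 of 12 measured members were higher (3.17% of all genes), and with a limit of 1 on the log2 scale 7 were (1.39%). With a limit of 0.25, 14 were higher (13.4%) and 1 lower (18.1%), Pfkm. With any gene of at least 1 UMI in each library, 14 of 32 were higher (8.62%). The score ratio between libraries was 0.40 without Gapdh, Aldoa and Pkm, and the Nefm gap in FGF9 was then 0.10. The Etv5 gap in control was 0.092 at 8000 UMIs per cell, where more cells had a UMI; the main value rests on 40 cells. Depth limits the feeder values most (692202 and 1863699 UMIs in all), so that Pfkp there has an interval of more than 1 on the log2 scale.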
